A study of Mus musculus with 40 samples.

Results

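The change in transcript levels between 1 and 8 weeks of age was compared between the kidney and the lung of male C57BL/6 mice, gene by gene, with the question which genes went opposite ways in the organs and which changed in one of them only. The comparison used 19 of the 40 arrays of the study, namely 5 arrays of kidney at 1 week, 5 of kidney at 8 weeks, 4 of lung at 1 week and 5 of lung at 8 weeks. These arrays were chosen by their titles. If the number in each sample description is that of the animal, 4 pairs of a kidney and a lung array of one age came from the same animal. The descriptions hold more numbers per age than the animals that the study's design text gives. This reading is therefore uncertain, and more pairs may have shared an animal. The array labelled lung 1 week replicate 4 was left out because it carried heart transcripts, with a signal of 36020 for the cardiac myosin gene Myh6 against 128 to 2291 on the 9 lung arrays used. The labels name the organ and no sorting of cells. No treatment or transgene is named for any group, and the growth rate given in the labels is rapidly proliferating for the younger age and very slowly proliferating for the older. Arrays of kidney and lung at 4 weeks and of heart at 1 and 4 weeks were used as a description beside the result. They also entered the choice of each gene's probe set and of the signal level for testing, which used all 40 arrays.

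Nephrons are still being completed around birth in the mouse, and the tubules then take up the transport and metabolism of the adult kidney. The lung of the newborn pup has few alveoli: most are formed after birth, when fibroblasts and myofibroblasts lay down elastin and the walls between air spaces grow out and become thin. In both organs cell division slows and collagen synthesis falls as growth ends, so a comparison of the changes separates what growing organs share from what each organ does alone.

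The organ markers were high on the arrays of the labelled organ. The mean log2 signal of 5 kidney markers was 13.5 to 14.64 on the kidney arrays and 6.87 to 7.46 on the lung arrays, and that of 5 lung markers was 13.1 to 13.75 on lung and 6.57 to 7.12 on kidney. Several arrays also carried transcripts of neighbouring tissues. The liver gene Alb gave 11530 and 2921 on kidney 1 week replicates 1 and 5 and 450.6 to 886.4 on the other 3 kidneys of that age, and the adrenal gene Cyp11b1 was highest on replicates 3 and 4 (435.5 and 428.2). Lung 8 weeks replicate 3 was high in Acta1 of skeletal muscle (15090), Adipoq of fat (7338) and Jchain of plasma cells (8248). Ucp1 of brown fat moved with age: it was 55.5 to 2816 in kidney at 1 week and 7.8 to 79.6 at 8 weeks. In lung it was 14.5 to 1288 at 1 week and 4.7 to 13.8 at 8 weeks. The part of brown fat in the changes was not tested. The mean log2 signal of 2 blood markers was 8.9 to 10.25 in lung at 1 week and 7.77 to 8.45 at 8 weeks. In kidney it was 7.42 to 8.48 and 7.42 to 8.5. The part of blood in the lung changes was not tested. The log2 signal of the 3' actin control probe set less that of the 5' one, which grows as RNA is degraded, was 0.34 to 0.51 for kidney at 1 week, 0.73 to 0.99 for kidney at 8 weeks and 0.36 to 0.55 for lung. The same measure for the Gapdh control was -0.47 to -0.31 for kidney at 1 week and -0.36 to -0.25 at 8 weeks, so there the ages overlapped. The actin difference moved with age in the kidney, and its part in the kidney changes was not tested.

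Levels are array signals, and changes are differences of log2(signal + 16), 8 weeks minus 1 week, each with its standard error (SE). A difference between the organs is the kidney change minus the lung change. Of 14602 genes tested with limma, 7330 (50.2%) changed in kidney at an adjusted p under 0.05, 4937 (33.8%) changed in lung, and for 4850 (33.2%) the changes of the organs differed. In 1919 of the last group (13.1% of all tested) the kidney change was the higher and in 2931 (20.1%) the lower. Most genes that passed in both organs moved together: 2535 went the same way, which is 34.6% of the kidney calls and 51.3% of the lung calls. Across all genes tested the changes in the organs had a Pearson correlation of 0.38 (Spearman 0.33), as a description, since genes are not independent replicates. The median change of all genes was -0.04 in kidney and -0.03 in lung.

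Against this background 623 genes (4.27%) went opposite ways and passed the test in kidney, in lung and for the difference. Of these, 198 (1.36%) rose in kidney and fell in lung, and 425 (2.91%) fell in kidney and rose in lung. At least 1.5-fold in each organ was reached by 71 and 125 genes, and at least 2-fold by 16 and 28. The arrays of the ages did not overlap in either organ for 121 genes of the first direction (0.829% of all tested) and 269 of the second (1.84%). A further 527 genes changed in one organ only. For these the changes differed, the change in one organ passed the test with at least 2-fold, and the 95% confidence interval of the change in the other organ lay wholly within 1.5-fold up or down. They were 194 genes that rose in kidney (1.33%), 213 that fell in kidney (1.46%), 83 that rose in lung (0.568%) and 37 that fell in lung (0.253%). The counts depended on the processing. With an offset of 64 in place of 16, 125 genes rose and 68 fell in lung only, and 274 rose in kidney only. With lung 1 week replicate 4 kept, 17 genes fell in lung only, 131 rose in kidney and fell in lung, and 310 did the reverse. With the mean of all probe sets of a gene, 134 of the 198 and 275 of the 425 opposite genes stayed in their class.

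**Figure D1:**
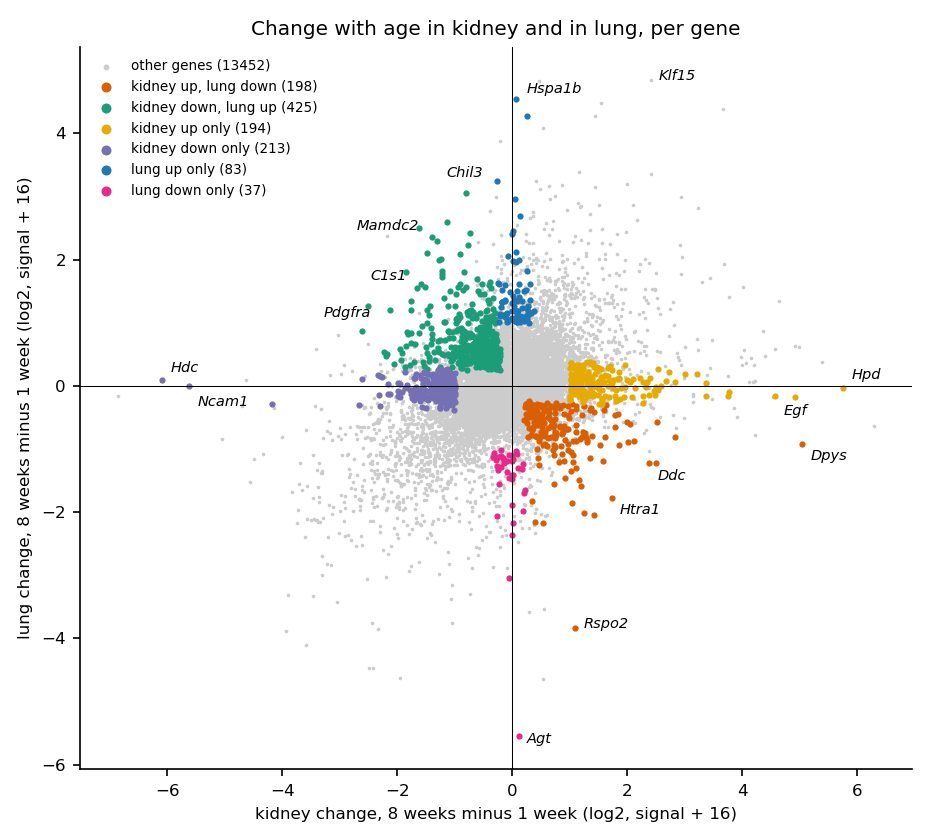
Change of each of the 14602 genes tested from 1 to 8 weeks in kidney (horizontal, log2) and in lung (vertical, log2); each point is 1 gene and colours mark the 6 classes with their numbers of genes. The opposite classes fill the upper left and lower right of the plot, with medians of 0.63 in kidney and -0.59 in lung for genes up in kidney and down in lung, and -0.6 and 0.6 for the reverse.

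Among the genes that rose in kidney and fell in lung, Htra1 had the largest smaller change of the organs. It encodes a secreted serine protease that cuts extracellular matrix proteins. In kidney its signal was 1335, 1028, 1278, 1348 and 955.4 at 1 week and 3782, 4092, 3872, 3832 and 4083 at 8 weeks. In lung it was 6650, 6561, 7088 and 7778 at 1 week and 1665, 2219, 2265, 1750 and 2430 at 8 weeks. Every 8-week kidney thus lay above every 1-week kidney, every 8-week lung lay below every 1-week lung, and the order of the organs turned, with the lung higher at 1 week and the kidney higher at 8 weeks. In bulk tissue, fewer cells of a type and less RNA per cell cannot be told apart. The kidney change was 1.73 (SE 0.12), the lung change -1.77 (SE 0.12), and the difference 3.49 (SE 0.17, adjusted p = 1.01e-10 in limma).

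Ddc encodes aromatic L-amino acid decarboxylase, which the proximal tubule uses to make dopamine. Its signal in kidney was 922.2, 1017, 970.5, 1175 and 786.6 at 1 week and 4967, 5352, 5191, 5148 and 4885 at 8 weeks. In lung it was 549.6, 542.3, 715.1 and 869.1 at 1 week and 264.2, 256.3, 257, 331.1 and 255.3 at 8 weeks. The organs lay nearest to each other at 1 week, and no arrays overlapped between the ages in either. The changes were 2.38 (SE 0.13) in kidney and -1.23 (SE 0.13) in lung, and the difference was 3.61 (adjusted p = 1.14e-10 in limma).

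Car2, the cytosolic carbonic anhydrase of acid-secreting and other cells, had almost the same signal in the organs at 1 week. It was 10430, 9576, 11490, 7986 and 7054 in kidney and 9679, 10300, 8952 and 9346 in lung. At 8 weeks it was 17180, 19140, 17880, 21100 and 19050 in kidney and 2398, 3079, 2693, 2530 and 2453 in lung. The kidney change was 1.04 (SE 0.12) and the lung change -1.86 (SE 0.12), with no overlap of ages in either organ. Car2 is also on the list of erythroid genes, of which 7 of 10 fell in lung. The part of red cells in its lung fall was not tested. Maf, which encodes a basic leucine zipper transcription factor, was called from its brightest probe set: its mean rose from 3790 ± 200.1 to 7663 ± 416.9 in kidney (SD, n = 5 each) and fell from 3372 ± 39.63 (SD, n = 4) to 1333 ± 294.6 (SD, n = 5) in lung. Maf had 6 probe sets, and 4 others were compared with the brightest. All 4 were lower in lung at 8 weeks (-2.47 to -0.81). In kidney 1 of them changed by 1.05 and the others by -0.17, 0.15 and 0.23, so the kidney rise of Maf rests on part of its probe sets.

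Ghr, the growth hormone receptor gene, rose in kidney from 4422, 3908, 3845, 2880 and 3440 to 9958, 11620, 12460, 13380 and 16600. In lung its signal was 3364, 3185, 3720 and 3797 at 1 week and 2719, 2506, 2816, 2420 and 2321 at 8 weeks. The lung arrays did not overlap between the ages, but the fall was small. The changes were 1.78 (SE 0.13) and -0.46 (SE 0.14), and the difference was 2.24 (adjusted p = 5.04e-08 in limma). Other probe sets of Ghr changed by -0.12 and -0.57 in lung and by 2.02 and 1.36 in kidney, so the size of the lung fall depends on the probe set. Igf1, the growth factor gene that growth hormone induces in liver, fell in both organs, by 1.13 in kidney and by 1.90 in lung, and that difference also passed the test (0.77, SE 0.19, adjusted p = 0.00476 in limma).

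Some enzymes of amino acid and pyrimidine breakdown were among the genes of this direction. Of 52 genes of amino acid breakdown 4 were in this class, against 1.36% of all genes tested. In lung 17 of the 52 rose and 5 fell. Sardh, the mitochondrial enzyme that turns sarcosine into glycine, rose in kidney from 1197 ± 129 to 3062 ± 269.6 (SD, n = 5 each) and fell in lung from 555.9 ± 105.3 (SD, n = 4) to 246.1 ± 58.4 (SD, n = 5). Dpyd, which takes the first step of pyrimidine breakdown, was chosen after its values were seen. It changed by 1.86 (SE 0.14) in kidney and by -0.94 (SE 0.14) in lung. Dpys, the enzyme of the next step, had the largest difference of the class (5.96, SE 0.37), but its lung signal was 5.1 to 52.9 at 1 week and 2.9 to 6 at 8 weeks, where the array hardly measures, and its other probe sets changed by -0.21 and 0.13 in lung. Eva1a, a gene linked to autophagy, changed by 1.20 in kidney and -1.58 in lung, Ptger3, a prostaglandin E2 receptor gene, by 1.58 and -1.19, and the smaller signals of Olfm4 and Fabp7 by 1.41 and -2.04 and by 1.24 and -2.02. On lung 8 weeks replicate 3, the array with fat and muscle transcripts, Ptger3 was at 426.2 against 73.4 to 125 on the other 4. Atp5g1, which encodes a subunit of the ATP synthase ring, changed by 0.67 (SE 0.16) and -0.54 (SE 0.17).

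A signal of 117.9, the level a gene had to reach in at least 1 group mean to be tested, was reached in both organs by 52 of the 71 genes with at least 1.5-fold in each organ in this direction, and by 104 of the 125 in the other. This count was chosen after the values were seen. The rest were dim in one organ, and there an opposite call rests on signals near background. Umod, the uromodulin gene of the thick ascending limb, is an example: it rose from 13830 ± 2112 to 29840 ± 5418 in kidney (SD, n = 5 each), while its lung change of -0.62 was between means of 32.45 and 14.98. Slc47a1, an organic cation exporter gene of the tubule, reached the level in lung at 1 week only: it rose 2.23-fold in kidney and had lung means of 167.1 and 55.36. Rspo2, a gene that strengthens Wnt signalling, fell in lung from 487.8, 582.6, 706.5 and 794.1 to 75.6, 27, 19.9, 10.5 and 34.7, but its kidney signal was at most 111.9. The genes nearest to the 1.5-fold limit in the smaller of their changes were Oas1c (-0.59 in kidney, 0.78 in lung) and Syne1 (-0.59 and 0.77) just inside it, and Cyth3 (-1.95 and 0.58) and Ntm (-0.58 and 0.73) just outside.

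Among the genes that fell in kidney and rose in lung, C1s1 encodes a protease of the classical complement pathway. In kidney it gave 1620, 1268, 1128, 1543 and 1530 at 1 week and 551.6, 420.1, 482.7, 472.1 and 368.7 at 8 weeks. In lung it gave 773.8, 817.3, 937.5 and 802 at 1 week and 2381, 2637, 2931, 2263 and 2665 at 8 weeks. The ages did not overlap in either organ and the order of the organs turned. The changes were -1.59 (SE 0.12) and 1.61 (SE 0.13), and the difference was -3.20 (adjusted p = 2.33e-10 in limma).

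Pdgfra, the receptor gene that marks fibroblasts and the precursors of alveolar myofibroblasts, was bright in both organs. Its kidney signal was 3807, 3024, 3247, 3401 and 3002 at 1 week and 814, 487.6, 859.7, 750.5 and 870.1 at 8 weeks. Its lung signal was 2104, 2540, 2831 and 2579 at 1 week and 6332, 5717, 4758, 5715 and 6389 at 8 weeks. Every 8-week kidney lay below every 1-week kidney, and every 8-week lung lay above every 1-week lung. The difference was -3.32 (SE 0.20, adjusted p = 1.06e-09 in limma), made of a kidney change of -2.12 and a lung change of 1.20. The lung rise of Pdgfra went against most of its list. Of 31 genes of alveolar septation and myofibroblasts, 2 rose and 22 fell in lung, and 2 rose and 22 fell in kidney. The medians were -1.28 in lung and -1.37 in kidney.

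Of the 44 genes of the matrix list 2 went this way, against 2.91% of all genes tested, and 34 of the 44 fell in lung. Dcn, the gene of the small proteoglycan decorin, which binds collagen fibrils, gave 8644, 6740, 8316, 6439 and 6397 in kidney at 1 week and 2877, 2307, 2501, 2909 and 2858 at 8 weeks. In lung it gave 2027, 1604, 2833 and 2717 at 1 week and 5380, 5092, 7659, 4159 and 5269 at 8 weeks. Its changes were -1.43 (SE 0.17) and 1.27 (SE 0.18). The microfibril genes Mfap5 (-2.62 in kidney, 0.86 in lung) and Thsd4 (-1.77 and 1.35) went the same way as Dcn, although another probe set of Mfap5 changed by 0.01 in lung, and so did Mamdc2, a matrix proteoglycan gene that rose in lung from 715 ± 57.77 (SD, n = 4) to 3741 ± 226.1 (SD, n = 5) and was dim in kidney.

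Ptgis encodes prostacyclin synthase, which makes a prostaglandin that widens vessels. Its signal in lung was 782.2, 769.7, 1018 and 1199 at 1 week and 3263, 3862, 3838, 3910 and 4016 at 8 weeks. In kidney it was 498.4, 749.8, 708.9, 450.7 and 514.1 at 1 week and 210.3, 198, 292.7, 270.3 and 208.3 at 8 weeks. No ages overlapped, and the difference was -3.25 (SE 0.23, adjusted p = 5.62e-09 in limma).

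Egr1, an immediate early transcription factor gene, gave 1649, 1113, 533.9, 920.9 and 581.8 in kidney at 1 week and 265.1, 213.8, 264.8, 372.9 and 459.7 at 8 weeks. In lung it gave 927, 799.5, 821.1 and 1065 at 1 week and 3031, 5312, 3932, 3357 and 4211 at 8 weeks. The kidneys of 1 week spread widely, but none fell into the range of 8 weeks. The changes were -1.49 (SE 0.26) and 2.10 (SE 0.28), with a difference of -3.58 (adjusted p = 1.02e-06 in limma). Cdkn1a, which encodes the cell cycle inhibitor p21, fell in kidney from 1617 ± 304.4 to 568.7 ± 89.82 (SD, n = 5 each) and rose in lung from 1071 ± 124.7 (SD, n = 4) to 2498 ± 285.4 (SD, n = 5).

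Carriers of insulin-like growth factors also split. Igfbp3 was far brighter in kidney at 1 week, at 4283 to 5334 against 178.8 to 212.9 in lung, and at 8 weeks it was at 2538 to 3233 in kidney and 759.8 to 1385 in lung. The kidney change was -0.74 (SE 0.13) and the lung change 2.42 (SE 0.14). Igfbp6 changed by -0.77 (SE 0.21) and 2.23 (SE 0.22), and Rbp4, the retinol carrier gene, by -1.23 (SE 0.30) and 1.72 (SE 0.32). The Rbp4 signal in kidney at 1 week was 1328 and 519.7 on replicates 1 and 5, which carried the most Alb, and 257.4 to 361.2 on the rest, and without those 2 arrays the difference between the organs was -2.41 against -2.94 with them. Igfbp1 went the other way (1.05 in kidney, -1.20 in lung), with lung means of only 50.7 and 10.92.

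Signals of Hp, Pon1 and Itih4, genes of plasma proteins that the liver secretes, fell in kidney by 2.50, 1.31 and 1.22 and rose in lung by 1.27, 2.30 and 1.82. The kidney part of these calls rests on dim signals that moved with liver transcripts: the Hp signal at 1 week was 571.6 and 268 on the kidneys with the most Alb, replicates 1 and 5, and 58.4 to 117.2 on the other 3. Without replicates 1 and 5 the differences between the organs were -2.97, -2.99 and -2.26 against -3.77, -3.61 and -3.04 with them, and Pon1 and Itih4 were then no longer called in opposite directions. In lung Hp was bright on every array used, at 4145 to 7408 at 1 week and 11730 to 14070 at 8 weeks. Frat2, Hpcal4, Tnfsf9 and Casp4 had log2 changes of at least 1.5 in size in each organ, from low signals: the highest of their group means was 352.3, that of Casp4 in lung at 8 weeks.

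**Figure D2:**
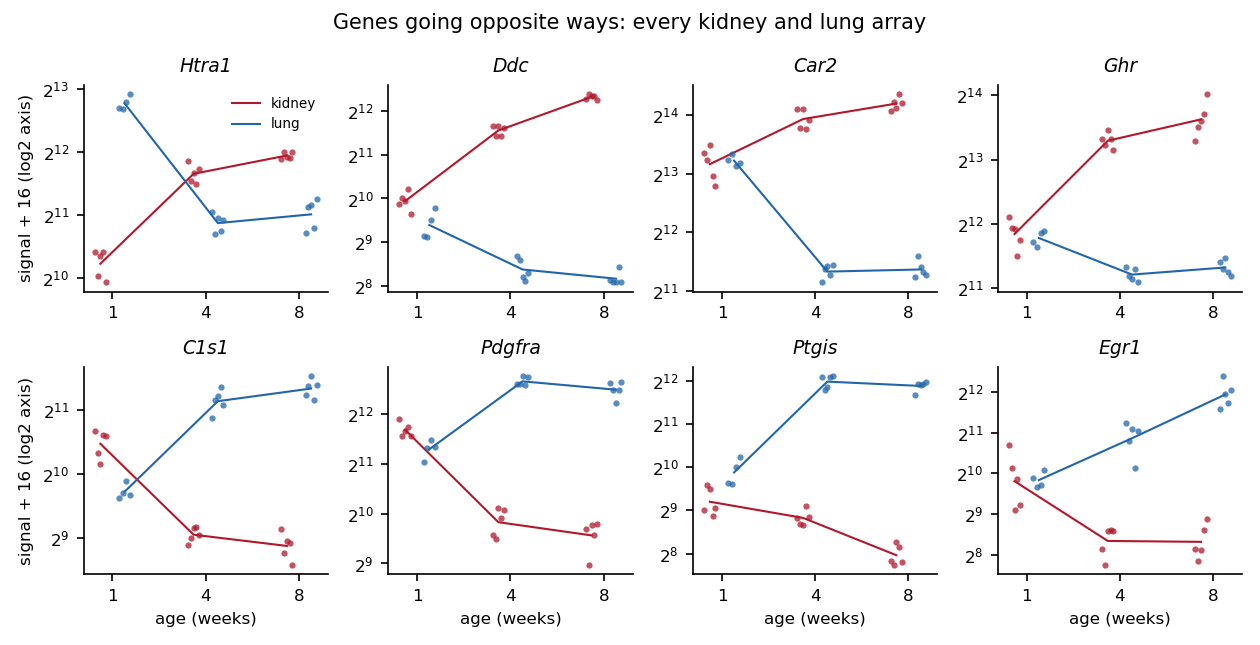
Signal + 16 (log2 axis) of 8 genes that went opposite ways, on every kidney array (red) and lung array (blue) at 1, 4 and 8 weeks, leaving out lung 1 week replicate 4; points are arrays and lines join the means of the log2 values. Htra1, Ddc, Car2 and Ghr rise in kidney and fall in lung, and C1s1, Pdgfra, Ptgis and Egr1 do the reverse.

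The kidney genes that rose while the lung stayed level were led by Hpd, the tyrosine breakdown enzyme 4-hydroxyphenylpyruvate dioxygenase. It gave 255.9, 162.4, 125, 211.5 and 172.9 in kidney at 1 week and 11040, 10380, 10450, 10180 and 11050 at 8 weeks. In lung it gave 126.1, 129.6, 123.6 and 105.6 at 1 week and 120.1, 151.2, 110.1, 101.1 and 114.4 at 8 weeks. The kidneys of 1 week thus lay close to the lung level. The kidney change was 5.76 (SE 0.14), and the 95% interval of the lung change ran from -0.33 to 0.28.

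Rdh16f2, a retinol dehydrogenase gene, rose in kidney from 412.5, 362.7, 389.8, 304.9 and 361.2 to 11910, 11740, 11250, 11240 and 11170, with lung signals of 8 to 47.6. Egf, the gene of the epidermal growth factor precursor of the distal tubule, rose from 837.3 to 1320 at 1 week to 23360 to 31170 at 8 weeks, with lung signals of 72.2 to 163.2. Prodh, the first enzyme of proline breakdown, was measured in both organs: it rose from 478.1 ± 60.65 to 4541 ± 429.6 in kidney (SD, n = 5 each), and its lung means were 270 and 310.9 (95% interval of the change -0.05 to 0.44). Others of this class were the cytochrome P450 genes Cyp2c23 (3.77 in kidney) and Cyp2d12 (3.76), the acetyltransferase gene Nat8 (3.37), and Dio1 (2.83), which converts thyroxine into the active thyroid hormone. The amino acid transporter gene Slc6a19 (2.32), the phosphate transporter gene Slc34a3 (2.38), Cbs (2.50) of homocysteine breakdown and Cyp51 (2.53) of cholesterol synthesis also belonged to it, as did Hlf (1.57), a clock-driven transcription factor gene. Another probe set of Cyp51 changed by 1.14 in lung and 2.14 in kidney, which goes against a level lung. A level lung signal is a weak statement where the gene is dim there: 145 of the 194 genes reached 117.9 in both organs, and Cyp2c23, Cyp2d12, Nat8, Dio1, Rdh16f2 and Slc34a3 did not.

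Genes that fell in kidney alone included genes of mesenchymal and endothelial cells. Hdc, the gene of histidine decarboxylase, which produces histamine, gave 1894, 1482, 1171, 1928 and 1109 in kidney at 1 week and 7, 5.2, 4.3, 8.2 and 5.4 at 8 weeks. In lung it gave 957.7, 1474, 1333 and 1378 at 1 week and 1567, 1583, 1130, 1221 and 1308 at 8 weeks. The organs were alike at 1 week, and at 8 weeks the kidney signal was under the offset of 16, which then sets the size of the change (-6.09, SE 0.16). The 95% interval of the lung change was -0.26 to 0.44.

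Vim, the gene of the intermediate filament of mesenchymal cells, gave 10020, 8393, 8215, 8711 and 7410 in kidney at 1 week and 1430, 1132, 1262, 1450 and 1362 at 8 weeks. In lung it gave 21430, 19150, 19010 and 23620, and then 16540, 18250, 16210, 15130 and 17550. The lung fall was small but passed the test (-0.31, SE 0.10, adjusted p = 0.026 in limma), so that Vim stands in this class by the size limit and not by an absent change. Ncam1, a cell adhesion gene of nerve cells and of the early nephron, fell by 5.63 in kidney, and its lung signal was 11 to 14.7 throughout. Reck, an inhibitor of matrix proteases, fell from 1680 ± 156 to 335.3 ± 43.24 in kidney (SD, n = 5 each) and had lung means of 2350 and 2594. Dclk1 (-4.18), the matrix gene Lum (-2.32) and Wt1 (-1.99), the transcription factor gene of the podocyte and its precursors, followed. The endothelial genes Cldn5, a tight junction gene, and Tie1, a receptor gene, fell by 1.69 and 1.67 in kidney, and their lung changes were -0.13 (SE 0.13) and -0.01 (SE 0.15). Aff3 (-2.61) and Fbln1 (-2.31) were called from their brightest probe sets, and for each another probe set gave a difference between organs of the other sign. 

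The largest rises in lung alone were those of Hspa1b and Hspa1a, which encode the inducible heat shock protein Hsp70. Hspa1b gave 497.4, 676.2, 582.9 and 643 in lung at 1 week and 12350, 15430, 11750, 14540 and 17710 at 8 weeks. In kidney it gave 2654, 4553, 4650, 5074 and 2948, and then 3690, 3150, 3954, 4264 and 5252. The lung thus went from below the kidney to above it, and the ages overlapped in kidney. The lung change was 4.54 (SE 0.19) and the 95% interval of the kidney change -0.32 to 0.44. Hspa1a rose in lung from 208 to 259.9 at 1 week to 4014 to 5919 at 8 weeks. At 4 weeks the lung arrays were far apart, at 7925, 4710, 4548, 1742 and 618.7 for Hspa1a.

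The genes are near-identical copies, so the array may not separate their transcripts. Their promoters, from 250 bases before to 50 after each gene's start in RefSeq (build GRCm38.p6), are shown for that reason. That of Hspa1a lies at chr17:34972107-34972406 and that of Hspa1b at chr17:34959189-34959488, each on the minus strand, and they had the same base at 296 of 300 positions. Capitals mark the GC box, GGGCGG or, on the other strand, CCGCCC.
Hspa1a: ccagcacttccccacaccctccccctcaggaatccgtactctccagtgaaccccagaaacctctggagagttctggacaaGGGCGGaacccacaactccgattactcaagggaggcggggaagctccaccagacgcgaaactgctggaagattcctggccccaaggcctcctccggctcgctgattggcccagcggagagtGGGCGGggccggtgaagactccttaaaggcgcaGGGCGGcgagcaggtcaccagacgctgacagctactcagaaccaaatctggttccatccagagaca
Hspa1b: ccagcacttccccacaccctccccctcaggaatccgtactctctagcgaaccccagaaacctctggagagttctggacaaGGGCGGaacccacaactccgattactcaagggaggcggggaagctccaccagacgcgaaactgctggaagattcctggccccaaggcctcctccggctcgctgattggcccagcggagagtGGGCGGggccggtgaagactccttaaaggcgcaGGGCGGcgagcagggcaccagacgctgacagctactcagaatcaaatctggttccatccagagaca
Each held 3 matches and neither held TATAAA on either strand.

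Chil3, a chitinase-like gene of lung macrophages, rose in lung from 2048, 1276, 1133 and 1365 to 13210, 15060, 12930, 13390 and 13350, with kidney signals of 2.9 to 19.7. Efemp1, a gene of elastic fibre assembly, was measured alike in both organs at 1 week. Its lung signal was 906.9, 854.8, 1004 and 1016 at 1 week and 3560, 3968, 3419, 4038 and 3779 at 8 weeks. Its kidney signal was 982, 975.5, 1010, 1091 and 638.8, and then 800.9, 866.5, 986.6, 861.6 and 1166. Its lung change was 1.97 (SE 0.14) and its kidney change 0.01 (SE 0.13). Tnfsf13b, which encodes the B cell survival factor BAFF, changed by 2.70 in lung and 0.13 in kidney, the aldehyde oxidase gene Aox1 by 2.40 in lung (95% interval in kidney -0.44 to 0.44), and H2-DMa, which loads peptides onto MHC class II, by 1.51 in lung and 0.08 in kidney. Another probe set of H2-DMa changed by 1.39 in lung and 1.09 in kidney, and one of Tnfsf13b by 1.11 and 0.55, so these lung-only calls rest on the brightest probe sets. Scn3a, a sodium channel gene, changed by 2.97 in lung and was at 1.2 to 7.1 in kidney. Of the 83 genes of this class, 63 reached 117.9 in both organs.

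Agt, the angiotensinogen gene, led the genes that fell in lung alone. It gave 1327, 1515, 1566 and 1670 in lung at 1 week and 11.2, 23.7, 9.2, 27.6 and 15.4 at 8 weeks. In kidney it gave 1255, 816.1, 1048, 1140 and 660.4, and then 1069, 887.6, 1206, 1093 and 959.9. At 1 week every lung array lay above every kidney array, and at 8 weeks the lung was near background. The lung change was -5.55 (SE 0.18), the kidney change 0.11 (SE 0.17), and the difference 5.66 (SE 0.25, adjusted p = 2.38e-11 in limma). At 4 weeks the lung had made 94.1% of the change.

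Ltbp2, a microfibril gene of the latent TGF-beta binding family, fell in lung from 6531 ± 486.3 (SD, n = 4) to 1745 ± 115.8 (SD, n = 5) and was at 46.3 to 124.1 in kidney. Hsd11b2, which inactivates glucocorticoids, gave 582.8, 512, 586.6 and 499.9 in lung at 1 week and 213.1, 212.2, 120.1, 143.5 and 144.1 at 8 weeks. In kidney it gave 3798, 3764, 3407, 4327 and 3243, and then 4057, 4164, 4314, 4480 and 4500. Its lung change was -1.65 (SE 0.14) and its kidney change 0.22 (SE 0.13). Rnf152, a ubiquitin ligase gene, changed by -2.17 in lung and 0.01 in kidney. Slc25a37, which imports iron into the mitochondria of red cell precursors, and Bpgm, which makes the oxygen affinity regulator of red cells, changed by -2.37 and -2.07 in lung. Cpa1 changed by -3.04, from a mean of 158. Palld (-1.46) had another probe set with a difference of the other sign.

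**Figure D3:**
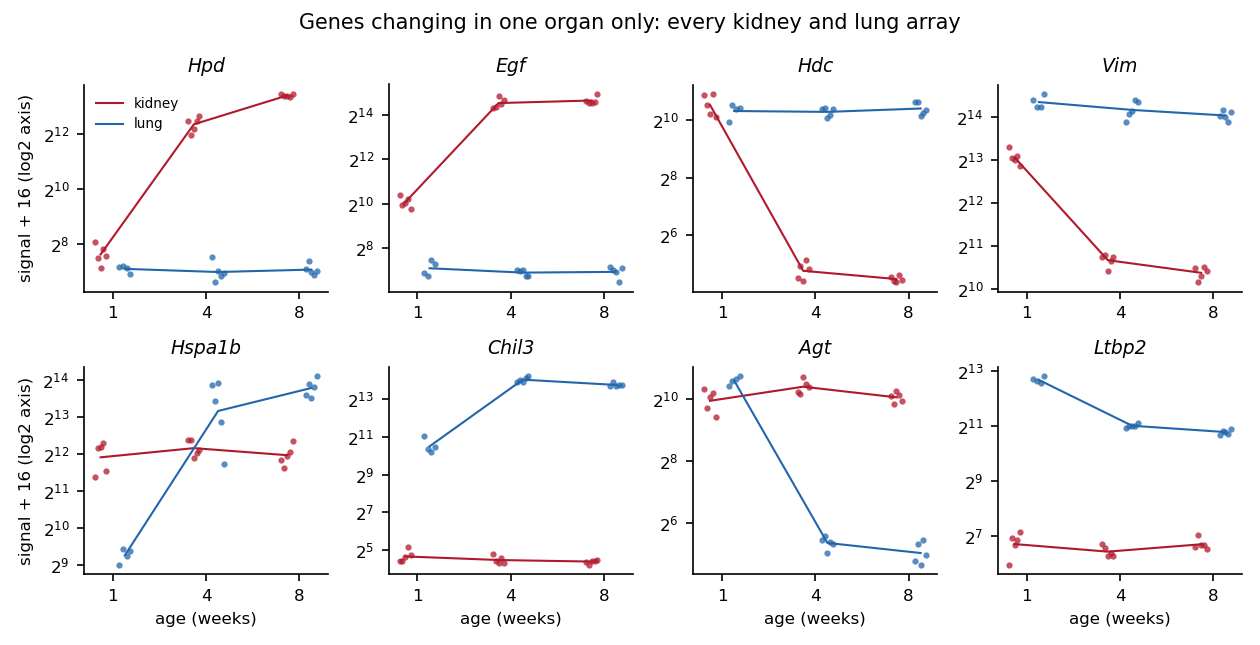
Signal + 16 (log2 axis) of 8 genes that changed in one organ only, on every kidney array (red) and lung array (blue) at 1, 4 and 8 weeks, leaving out lung 1 week replicate 4; points are arrays and lines join the means of the log2 values. Hpd and Egf rise and Hdc and Vim fall in kidney, while Hspa1b and Chil3 rise and Agt and Ltbp2 fall in lung.

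Several of the largest differences fell into neither kind of class, because the smaller change was not bounded tightly enough. The largest positive one was that of Serpina1f, a serine protease inhibitor gene. It rose in kidney from 79.6 to 133.4 at 1 week to 8887 to 9613 at 8 weeks, with lung signals of 5.1 to 83.6 and a difference of 6.92 (SE 0.35). The steroid dehydrogenase gene Akr1c21 (5.01) and Bhmt (4.99), a methionine synthesis gene, also rose in kidney. Slc4a1, the red cell anion exchanger gene, which the intercalated cells of the kidney also use, fell in lung from 2727, 5741, 3810 and 1524 to 80.4, 117.2, 144.6, 151.2 and 72.4, and its difference was 5.17 (SE 0.42).

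The largest negative difference was that of Serpina6, which encodes corticosteroid-binding globulin. It fell in kidney from 16320, 8396, 9830, 10960 and 12000 to 43.5, 88.2, 64.5, 134.6 and 99, with lung signals of 16.4 to 124.6. At 1 week it was 16320 and 12000 on kidney replicates 1 and 5, which carried the most Alb, and 8396 to 10960 on the rest. The part of liver tissue in its change was not tested. Afp, the alpha-fetoprotein gene (-4.21), the defensin gene Defb19 (-4.73) and Htra3 (-4.38), a protease gene related to Htra1 with another probe set of the other sign, also fell in kidney. Ms4a4d, a membrane protein gene, rose in lung from 76.72 ± 19.86 (SD, n = 4) to 2571 ± 226.9 (SD, n = 5) and differed by -4.37. The difference of Adipoq, the adipocyte hormone adiponectin (-4.55, SE 1.28), rests on few arrays: the lung signal at 8 weeks was 697.9, 456.8, 7338, 289.3 and 1935, the highest on the array with muscle and plasma cell transcripts. The lung change alone did not pass (adjusted p = 0.0584 in limma). In kidney Adipoq gave 112, 252.1, 1136, 730.9 and 552.1 at 1 week and 431.2, 3.4, 62.5, 94.3 and 101.7 at 8 weeks. The 1-week kidneys ranked as they did for Ucp1 of brown fat, and the part of that tissue was not tested.

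The gene lists, written with earlier results of these data known, are described by their counts and medians, with no test. Of 40 genes of proximal tubule transport, 36 rose in kidney and none fell, and 7 rose and 3 fell in lung, with medians of 1.24 and -0.06. Over all genes 20.5% rose and 29.7% fell in kidney, and 16.7% rose and 17.1% fell in lung. The difference was positive for 35 of the 40 and negative for 1, against 13.1% and 20.1% of all genes.

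Of 52 genes of amino acid breakdown, 48 rose in kidney and none fell, and 38 differences were positive and 1 negative. In lung 17 of them rose and 5 fell. Besides Hpd, Bhmt (4.99), Gldc of the glycine cleavage system (4.15) and Haao of tryptophan breakdown (3.69) had large differences. Of 49 genes of oxidative phosphorylation, 47 rose in kidney and 1 fell, but with a median of 0.62, and 3 rose and 2 fell in lung, with a median of -0.11. The difference was positive for 42 and negative for 1. Ndufs8, a subunit of complex I, changed by 0.99 (SE 0.16) in kidney and -0.31 (SE 0.17) in lung, and Cycs, the cytochrome c gene, by 0.92 (SE 0.13) and -0.30 (SE 0.14). Of 35 genes of fatty acid oxidation and ketone metabolism, 22 rose and 2 fell in kidney, 6 rose and 3 fell in lung, and 18 differences were positive and 2 negative, such as that of the acetyl-CoA hydrolase gene Acot12 (3.03). Among 20 genes that the kidneys of male mice are known to express more than those of females, 15 rose and 3 fell in kidney, and 13 differences were positive.

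Of 31 endothelial genes, 25 fell in kidney and none rose, 10 rose and 4 fell in lung, and 24 differences were negative and none positive. Aplnr, the apelin receptor gene of growing vessels, fell by 2.71 in kidney and 0.63 in lung. Calcrl, the receptor gene for adrenomedullin, fell in kidney (-1.36) and rose in lung (0.54), and another of its probe sets had a small difference of the other sign. In the podocyte and glomerulus list, 10 of 14 genes fell in kidney and 1 rose. Jag1, a Notch ligand gene counted in the opposite class, changed by -1.71 in kidney and 0.38 in lung, where its other probe sets changed by 0.03 and 0.04.

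In the list of 44 collagen and other matrix genes, 41 fell in kidney and 34 in lung, with medians of -2.16 and -0.92, and 29 differences were negative and 4 positive. Col1a1 of type I collagen fell by 3.47 in kidney and 1.77 in lung, Postn by 3.14 and 0.86, and the laminin gene Lama4 by 3.19 and 0.56. Eln, the elastin gene, fell from 2128 to 2613 at 1 week to 461.4 to 580.7 at 8 weeks in kidney and from 16050 to 22130 to 2428 to 4360 in lung, and its difference did not pass the test (0.51, SE 0.20, adjusted p = 0.0629 in limma). Of 39 cell division genes, 36 fell in kidney and 38 in lung and none rose in either, with medians of -2.03 and -1.37. The changes differed for 18 of them, each time with a negative difference: Birc5 fell by 4.56 and 1.53, and Mki67 by 3.40 and 2.12. Of 20 imprinted and fetal growth genes, 19 fell in kidney and 20 in lung, and differences went both ways. Cdkn1c, a cell cycle inhibitor gene, fell farther in kidney (-4.01 against -0.81), the growth factor gene Mdk fell farther in lung (-3.38 against -1.08), and Igf2 changed by -2.30 and -2.22 (difference -0.08, 95% interval -0.55 to 0.40), with another probe set of the other sign.

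Of 28 immediate early genes, a list added after the data were seen, 19 rose in lung and none fell, while 3 rose and 12 fell in kidney. Their medians were 0.74 and -0.36, 20 differences were negative and 1 positive, and 8 members fell in kidney and rose in lung. Fos gave 660.6, 629, 598.4 and 571.6 in lung at 1 week and 2729, 4324, 2593, 2679 and 2785 at 8 weeks, and 115.2 to 250.5 in kidney. Atf3 changed by 2.77 in lung and -0.39 in kidney, and Gadd45b by 1.08 and -0.96, with another probe set of the other sign. Of 21 heat shock genes, also added then, 16 rose in lung and 10 in kidney, and 10 differences were negative and none positive. The small heat shock protein gene Hspb1 changed by 1.69 in lung and -0.25 in kidney. Of 25 glucocorticoid response genes, 18 rose in lung and 16 in kidney, with medians of 1.48 and 0.87, and 14 differences were negative and 4 positive. Klf15 rose in both, from 37.75 to 1544 in lung and from 470.4 to 2464 in kidney, and Zbtb16 by 4.28 and 1.44. Fkbp5 rose by 0.89 in lung and 0.87 in kidney, with a difference of -0.02 (95% interval -0.69 to 0.65). Lrat, which stores retinol as esters, rose by 4.47 in lung and 1.54 in kidney. The labels used here give no time of day and no manner of killing, and their part in these lists was not tested. Of 19 clock genes, 11 rose in kidney and 13 in lung, with medians of 0.87 and 0.86. Dbp differed (2.94 in kidney, 2.04 in lung) and Per2 did not pass (1.18 and 0.93, adjusted p = 0.505 in limma for the difference).

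Of 24 macrophage genes, 15 rose in lung and none fell, 5 rose and 7 fell in kidney, and 14 differences were negative and none positive. Mrc1, the macrophage mannose receptor gene, fell in kidney (-1.06) and rose in lung (0.61). Of 18 genes of antigen presentation by MHC class II, 14 rose in lung and 10 in kidney, with medians of 1.16 and 0.48. The difference was negative for 6 of them and positive for 2. Cd74 went against most of these and rose farther in kidney (2.52 against 1.39). Of 24 genes of alveolar type 1 cells, 10 rose and 1 fell in lung, 3 rose and 11 fell in kidney, and 14 differences were negative. Ager, their defining gene, had a difference of -2.04 that comes mostly from a kidney fall between means of 93.14 and 9.32. Its lung change of 0.40 (SE 0.43) did not pass, although the lung arrays of the ages did not overlap. They gave 16390 to 18670 at 1 week and 20720 to 24940 at 8 weeks. The SE uses the spread of all 4 groups, and the dim kidney signals of 1 week ran from 11.7 to 222.3. Of 30 genes of alveolar type 2 cells and surfactant, 14 rose in lung and none fell, and Sftpc, the surfactant protein C gene, did not pass in either organ (0.09 in lung). Of 10 erythroid genes, 7 fell in lung and none rose, 2 rose and 2 fell in kidney, and 7 differences were positive. Alas2, the first enzyme of haem synthesis in red cell precursors, fell by 2.73 in lung and 0.77 in kidney. Wnt2 and Fgf18, signal genes of the growing lung, changed there by -2.23 and -2.05 and were dim in kidney, at means of 73.9 and 68.5 and of 16.16 and 33.96.

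**Figure D4:**
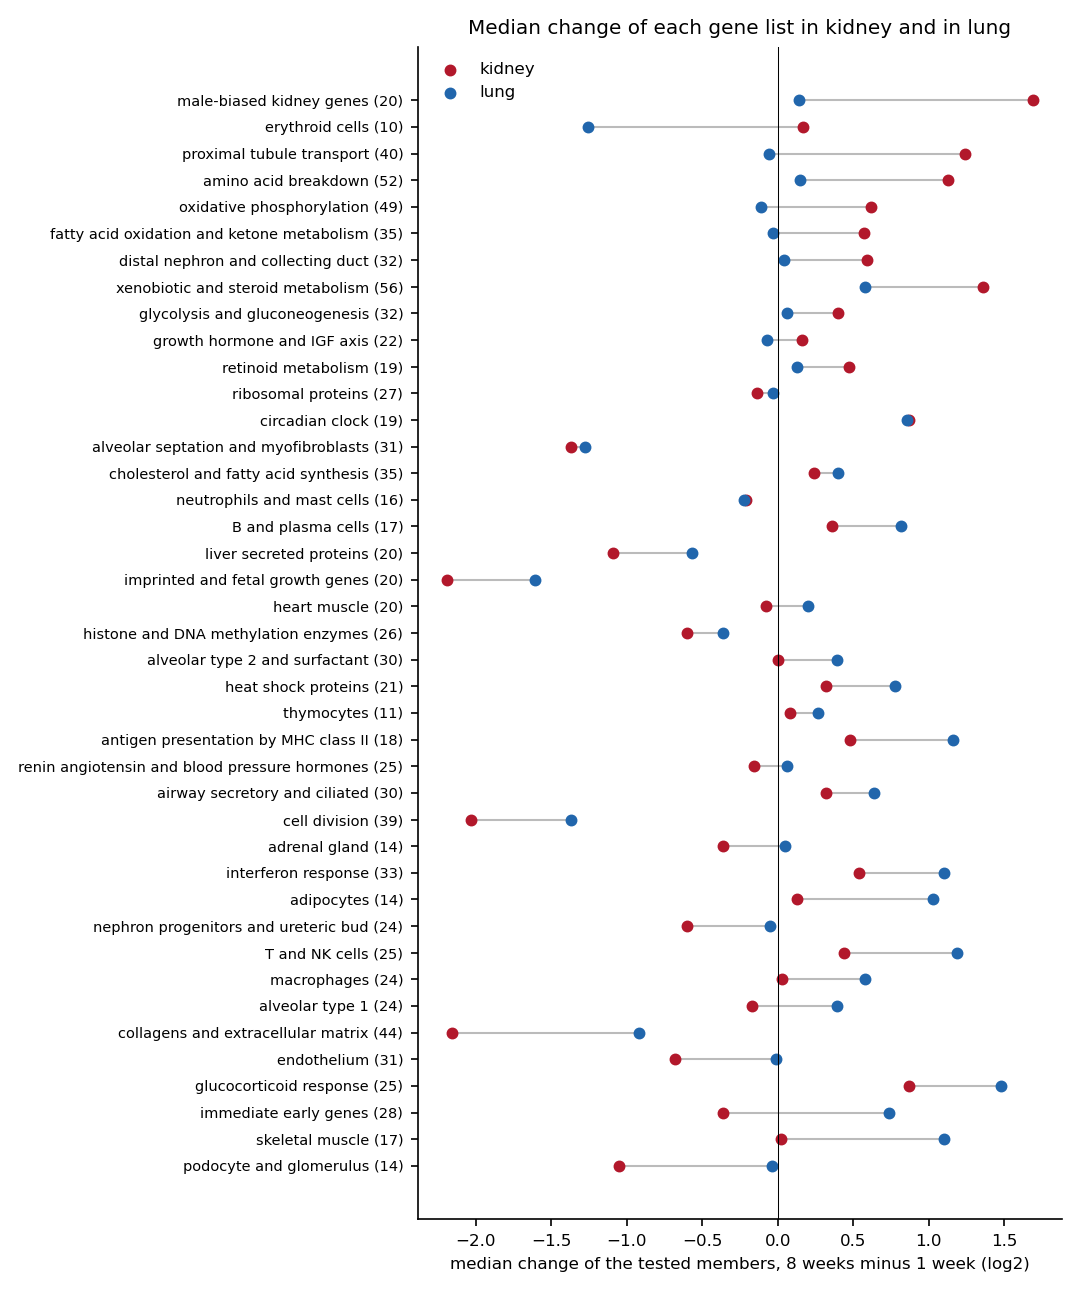
Median log2 change from 1 to 8 weeks of the tested members of each of the 41 gene lists in kidney (red) and in lung (blue), ordered by the median difference between the organs; the number of tested members stands in brackets. Proximal tubule, amino acid breakdown and oxidative phosphorylation lists lie to the right in kidney and near 0 in lung (-0.06, 0.15 and -0.11), matrix and cell division lists lie to the left in both organs, and immediate early genes lie on opposite sides of 0.

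The arrays of 4 weeks had no part in the tests that made the classes, but they entered the choice of probe sets and of the level for testing. They describe how far the changes had gone by that age. The position of the 4-week mean on the way from the 1-week mean to the 8-week mean had a median of 89.2% in kidney and 81.8% in lung for the genes that rose in kidney and fell in lung, and of 90.3% and 87.7% for the reverse. At least 50% of the way was covered in both organs by 148 of the 198 genes and 324 of the 425. The medians for the genes of one organ were 91.2% and 91.3% for kidney rises and falls and 89.9% and 84.8% for lung rises and falls. Some genes were slower in one organ: Ptgis had gone 30.2% of its kidney fall but 105% of its lung rise, Egr1 98.5% and 48.9%, and Cdkn1a 102% and 38.4%. Igfbp3 had gone 170% in kidney, with 4-week signals of 1702 to 2481 below those of 8 weeks. The means of 1 and 8 weeks enter both the choice of the genes and these shares.

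Heart arrays of 1 and 4 weeks, which the fit of the comparison did not use, were set beside the classes as a description. The heart fit left out the array labelled heart 1 week replicate 5. Of 12947 genes tested in heart, 26.3% passed limma's test, with 11.7% higher and 14.6% lower at 4 weeks. Of 149 genes that rose in kidney only and were tested in heart, 46 were higher and 5 lower there, and of 196 that fell in kidney only, 12 were higher and 83 lower. Of 60 genes that rose in lung only, 36 were higher and 1 lower in heart. Of the opposite classes, 25 of 175 genes up in kidney were higher and 22 lower in heart, and 60 of 379 genes up in lung were higher and 45 lower. The heart fit was not among the tests set down at first.

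RefSeq promoters were found for 11719 of the 14602 genes. In windows of 300 bases 20 motifs were searched on both strands, and those named here were picked after all shares were seen. TATAAA was held by 10.3% of all these promoters, by 30 of 154 (19.5%) of the genes that rose in kidney only, 13 of 70 (18.6%) of those that rose in lung only and 6 of 27 (22.2%) of those that fell in lung only. Its share was 8.07% among genes up in kidney and down in lung and 12.5% among the reverse. TGANTCA, the site of AP-1 factors such as Fos, was in 14 of 70 (20%) of the promoters of genes that rose in lung only and 6.86% of all, and GGGCGG in 60% and 63.6%. These shares are descriptions and name no site.

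The promoters of Agt, at chr8:124569657-124569956 on the minus strand, and of Rdh16f2, at chr10:127866226-127866525 on the plus strand, are shown as examples from a gene that fell in lung only and a gene that rose in kidney only, chosen after the sequences were seen. Capitals mark TATAAA or, on the other strand, TTTATA.
Agt: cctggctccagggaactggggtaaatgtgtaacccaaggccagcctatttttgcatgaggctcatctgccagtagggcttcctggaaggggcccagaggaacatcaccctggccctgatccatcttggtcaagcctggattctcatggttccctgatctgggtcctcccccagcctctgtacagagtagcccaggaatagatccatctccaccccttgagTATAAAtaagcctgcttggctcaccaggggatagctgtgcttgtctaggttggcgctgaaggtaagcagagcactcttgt
Rdh16f2: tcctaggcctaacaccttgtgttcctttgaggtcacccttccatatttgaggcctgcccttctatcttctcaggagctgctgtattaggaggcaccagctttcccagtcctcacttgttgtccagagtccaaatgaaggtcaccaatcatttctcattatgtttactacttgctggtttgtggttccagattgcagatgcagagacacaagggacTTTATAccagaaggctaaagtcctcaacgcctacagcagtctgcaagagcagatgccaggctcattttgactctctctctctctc
Each held 1 match, at -30 bases from the gene's start in Agt and -35 in Rdh16f2.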

How the data were processed

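Per the labels' protocols, Trizol was used to extract total RNA from the organs, and biotinylated cRNA made from it was put on Affymetrix arrays. The deposited values are linear intensity values per probe set, from 0 to 69706.7. The submitters' processing notes name RMA and Partek 6.6 without their roles. The values are not on RMA's log2 scale, and each array's mean after trimming 2% at each end was 500. The genome build is not given in the sources used here.

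Of 45101 probe sets, 34958 had 1 gene symbol, 932 several and 9211 none in the platform annotation. Each of 18194 genes was represented by its brightest probe set over the 40 arrays, and 14602 genes with a group mean of at least 117.9, the 40th percentile of all values, were tested. limma 3.58.1 in R 4.3.3 (lmFit, eBayes) fitted 4 group means to log2(signal + 16) of 19 arrays, with Benjamini-Hochberg adjustment over all genes. The scripts were tested on simulated data. The number of arrays limits the precision, and p-values treat the arrays as independent. However, 4 kidney and lung pairs share a number in their descriptions, read here as the animal's. With that number as a random block (consensus correlation -0.002) the classes held the same genes. The block covers only those 4 pairs, so it cannot show whether other arrays shared an animal.

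Replicate numbers did not pair the arrays: same-numbered arrays had a median correlation of deviations of 0.01 (-0.24 to 0.14, 27 pairs). The genes, the classes and the 41 gene lists (1133 of 1233 entries matched) were chosen with earlier results of these data known, and 2 lists were added after the data were seen. The rule for named genes took, per class, those with the largest changes (for opposite genes, the largest smaller change), the largest differences, up to 4 members per list and a set list. The text names part of them, picked after values were seen. Dpyd, Slc34a3, Slc6a19 and Cbs were named outside this rule, also after their values were seen. Alternatives were another offset, filter, normalization, probe set rule, array choice and block.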

Additional observations from a re-analysis of the deposited data

Results flagged for a closer look

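The changes of kidney and lung differed in 4850 genes by limma's test of the difference. Among the leading genes of the opposite classes, the difference in log2 changes was 3.49 for Htra1, 3.46 for Olfm4, 3.26 for Fabp7, 3.61 for Ddc and 2.79 for Eva1a. It was -3.66 for Frat2, -3.2 for C1s1 and also -3.2 for Tnfsf9, -3.58 for Egr1 and -3.77 for Mamdc2.

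In 32 of 484 groups of arrays (6.61%) of the 121 named genes, 1 array stood apart by Dixon's test, where chance gives about 1 in 20. On lung 8 weeks replicate 3, which carried muscle, fat and plasma cell transcripts, Ptger3 was high (426.2), as were Atp5g1 (1110), Defb19 (23.5) and Gldc (28.2), and Acot12 was low (29.8). On lung 1 week replicate 2, whose Alb signal of 1333 was the highest of the lungs used, Itih4 was at 1478 against 446.2 to 462.5, Igfbp1 at 106.5, Tnfsf13b at 166.4 and Cpa1 at 215.5, and Serpina6 was low (42.4). The part of these tissues in the values was not tested.

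On kidney 8 weeks replicate 5, Egf (31170), Cycs (28150) and Lama4 (180.9) were high and Rnf152 (631.3) was low. On kidney 8 weeks replicate 2, Pdgfra (487.6), Hspa1a (730.6) and Hspb1 (1859) were low and Pon1 (81.9) was high. Low values on kidneys of 1 week were those of Igfbp6 (156.9) and Sftpc (82.5) on replicate 1, Htra3 (1237) on replicate 3 and Efemp1 (638.8) on replicate 5. On lung 8 weeks replicate 1, Frat2 (47.2), Ptgis (3263) and Hspb1 (7270) were low. Other lungs of 8 weeks stood apart for Chil3 (15060) and Fos (4324), high on replicate 2, Ddc (331.1), high on replicate 4, and Slc34a3 (53.8), low on replicate 5. Lungs of 1 week did so for Igf1 (4465) on replicate 1, and for Cyp51 (400.7) and Ncam1 (14.2) on replicate 5, all high.

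The array labelled lung 1 week replicate 4, which was left out, had a Myh6 signal of 36020.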

How the results depend on the processing

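Under 33 alternative settings, of which 1 was chosen after seeing the data, 162 of the 623 genes going opposite ways were called opposite in every one. With an offset of 64 in place of 16, 125 genes rose and 68 fell in lung only. With lung 1 week replicate 4 kept, 131 genes rose in kidney and fell in lung, and 17 fell in lung only. With the replicate block the counts were 7114 in kidney, 4550 in lung and 4500 for the difference (1767 higher and 2733 lower in kidney), 178 and 391 opposite, 196 of them by at least 1.5-fold, and 181, 217, 83 and 35 in one organ only, and it moved no count by over 1.5 times. Leaving out each array in turn gave 6856 to 7307 genes in kidney, 4216 to 5342 in lung and 4311 to 4901 for the difference (1643 to 1967 higher, 2668 to 2999 lower). It gave 150 to 206 and 365 to 430 opposite genes, 178 to 200 by at least 1.5-fold, 164 to 222 and 187 to 229 in kidney only, and 71 to 104 and 31 to 41 in lung only. The share of differences higher in kidney was 39.6%, and 37.1% to 45.4% under the alternatives. None of the 121 named genes reversed a difference that passed the test in the main fit or in the alternative. Sign changes of differences that passed in neither were not counted. Keeping lung 1 week replicate 4 ended the call of the difference for Ptger3, Atp5g1, Lum, Ltbp2, Igf1, Wnt2, Cd74 and Ager, and Eln passed under 5 settings. Dim signals limit what a level organ shows, and for 10 of the 86 further probe sets of the named genes that were compared the difference had the other sign. Some named genes had more probe sets than were compared.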
